A study of Mus musculus with 9 samples.

Results

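Fibronectin, the thrombospondins and the matricellular genes are described here as 10 genes taken by symbol: *Fn1*, *Thbs1*, *Thbs2*, *Thbs3*, *Thbs4*, *Tnc*, *Tnxb*, *Postn*, *Sparc* and *Spp1*. All 10 are among the 24341 genes counted by RNA-Seq in 9 samples of mouse embryonic fibroblasts (MEFs), which are fibroblasts grown out of embryos. There were 3 samples each of WT, *Atm-/-* and *Sirt6-/-* cells, all labelled as strain C57BL/6 and grown in DMEM with FBS and without any other treatment named. ATM is the kinase that signals DNA double-strand breaks, and SIRT6 is a chromatin-bound deacylase. The labels name wild-type, *Sirt6-/-*, P53-/- and *Atm-/-*P53-/- mice as the sources of the cells without saying which sample came from which. The study's methods name an immortalized *Atm-/-; p53-/-* line and an immortalized *Sirt6-/-* line that came from different laboratories. No source used here says from how many cultures or embryos the 3 samples of a genotype came, so the p-values measure only the spread between these samples.

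Fibronectin is a large adhesive glycoprotein that fibroblasts secrete and assemble into fibrils on integrins at their surface. Thrombospondins, tenascins, periostin, SPARC and osteopontin are called matricellular because they bind matrix, growth factors and cell receptors and tune adhesion more than they bear load. Fibroblasts in culture make fibronectin and SPARC in large amounts, and several of the other genes are induced in wounds, in developing bone and around tumours.

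The 9 libraries held 32187040 to 33837949 counted reads, so that 3 reads corresponded to 0.0887 to 0.0932 CPM (counts scaled to library size). *Sirt6*, the gene targeted in the *Sirt6-/-* cells, had 4, 5 and 7 reads there against 402 to 487 in WT. *Atm* had more reads in *Atm-/-* (3443 to 3768) than in WT (1536 to 1627), and a count over the whole gene does not check a deletion of part of it, so that this genotype rests on its label. *Trp53*, the gene of p53, had 806 to 946 reads in *Atm-/-*, 6563 to 7108 in WT and 9081 to 9218 in *Sirt6-/-*. Loss of ATM, p53 status and line of origin therefore cannot be told apart in the *Atm-/-* samples, and neither can genotype and line of origin in the *Sirt6-/-* samples. Of 10 fibroblast markers, 9 reached 1 RPKM (reads scaled to transcript length and library size) in WT and *Atm-/-* and 8 in *Sirt6-/-*. Their summed level was 6004 to 6517 RPKM in WT, 3058 to 3067 in *Atm-/-* and 7133 to 7201 in *Sirt6-/-*. The sum is set by the most abundant markers. Of the 9 markers tested against WT, 1 rose and 8 fell in *Atm-/-* (median log2 fold change -1.82). In *Sirt6-/-*, 4 rose and 5 fell (median -0.56). Of all genes tested, 68.4% and 76.6% were called in these 2 comparisons. Of 5 epithelial markers, 2 (*Krt8* and *Krt18*) reached 1 RPKM in every genotype, with summed levels of 9.77 to 11.9 RPKM in WT, 26.8 to 30.5 in *Atm-/-* and 8.13 to 10.2 in *Sirt6-/-*, while *Epcam*, *Cdh1* and *Krt5* stayed below. Of 4 endothelial markers, 1 (*Kdr*) reached it in *Atm-/-* and 0 elsewhere (sums of 0.555 to 0.947, 1.89 to 2.43 and 0.156 to 0.228 RPKM in the same order). Of the 3 leukocyte markers in the tables, 2 reached it in WT and 1 in each knockout (4.19 to 4.81, 2.31 to 2.63 and 1.70 to 2.05 RPKM), and *Ptprc* stayed below in all. The 3 markers each of skeletal muscle and of Schwann cells and neural crest were under 1 RPKM in every genotype. The part of these other cell types in the results was not tested. Over all genes WT replicate 2 stood apart from the other WT samples (chi-square per gene 15.6 and 14.4, against 5.11 to 6.66 for the other pairs of 1 genotype). Without it, 9 of the 10 genes described here were called in *Atm-/-* and 7 in *Sirt6-/-* against WT, as with it. In bulk samples such as these, fewer cells of a type and less RNA per cell cannot be told apart.

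Compared with WT, *Atm-/-* MEFs had lower fibronectin, SPARC, tenascin C and thrombospondin 1 mRNA and higher thrombospondin 2, osteopontin, periostin, tenascin XB and thrombospondin 3 mRNA. The largest differences were those of *Thbs2* (log2 fold change 2.74), *Spp1* (2.18) and *Sparc* (-2.13). Of the 10 genes, 9 had enough reads to be tested, and 5 rose and 4 fell at an adjusted p under 0.05 (quasi-likelihood test of edgeR, p-values adjusted over all genes by the Benjamini-Hochberg method). This is to be read against a background in which 68.4% of the 13283 genes tested were called, 34.7% as higher and 33.6% as lower. In TMM-scaled CPM, on which overlap is judged in these comparisons, the *Atm-/-* and WT samples did not overlap for any of the 9 genes. This was the case for 72.7% of all genes tested. A change of at least 2-fold was called for 4 of the 9, namely *Fn1*, *Sparc*, *Thbs2* and *Spp1*, against 22.5% of all genes. The median absolute log2 fold change was 0.92 over the 9 genes and 0.40 over all genes tested.

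In *Sirt6-/-* MEFs, fibronectin, SPARC and thrombospondin 1 mRNA were again lower than in WT, and periostin, tenascin XB, osteopontin and thrombospondin 3 mRNA were higher. *Postn* had the largest rise (log2 fold change 2.25) and *Fn1* the largest fall (-1.29). The same 9 genes were tested, of which 4 rose, 3 fell and 2 (*Thbs2* and *Tnc*) did not pass, against 76.6% of the 13206 genes tested called, 39.2% as higher and 37.4% as lower. Without WT replicate 1 *Thbs2* passed (log2 fold change 0.44, adjusted p = 0.0473), and without *Sirt6-/-* replicate 2 *Tnc* passed (0.13, adjusted p = 0.0482). The samples of both genotypes did not overlap for 7 of the 9 genes, against 79.0% of all genes. A change of at least 2-fold was called for 4 of the 9, namely *Fn1*, *Sparc*, *Tnxb* and *Postn*, against 29.3% of all genes. The median absolute log2 fold change was 0.93, and over all genes tested 0.54. Both comparisons used the same WT samples, so their values are given side by side and their likeness is not counted as a result.

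The 2 knockouts were also compared directly. *Thbs2*, *Spp1* and *Thbs1* were higher in *Atm-/-*, and *Postn*, *Sparc*, *Tnc*, *Thbs3*, *Tnxb* and *Fn1* were higher in *Sirt6-/-*. All 9 genes tested passed (3 higher and 6 lower in *Atm-/-*), against 75.8% of the 13460 genes tested, 38.0% as higher and 37.8% as lower. The samples did not overlap for 8 of the 9 genes, against 78.1% of all genes, the exception being *Thbs1*. A difference of at least 2-fold was called for *Thbs2*, *Spp1*, *Postn* and *Sparc*, that is for 4 of the 9 genes against 25.5% of all genes. The 9 genes had 134 reads or more in every sample, so none of them passed the filter on low counts through 1 genotype alone.

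**Figure D1:**
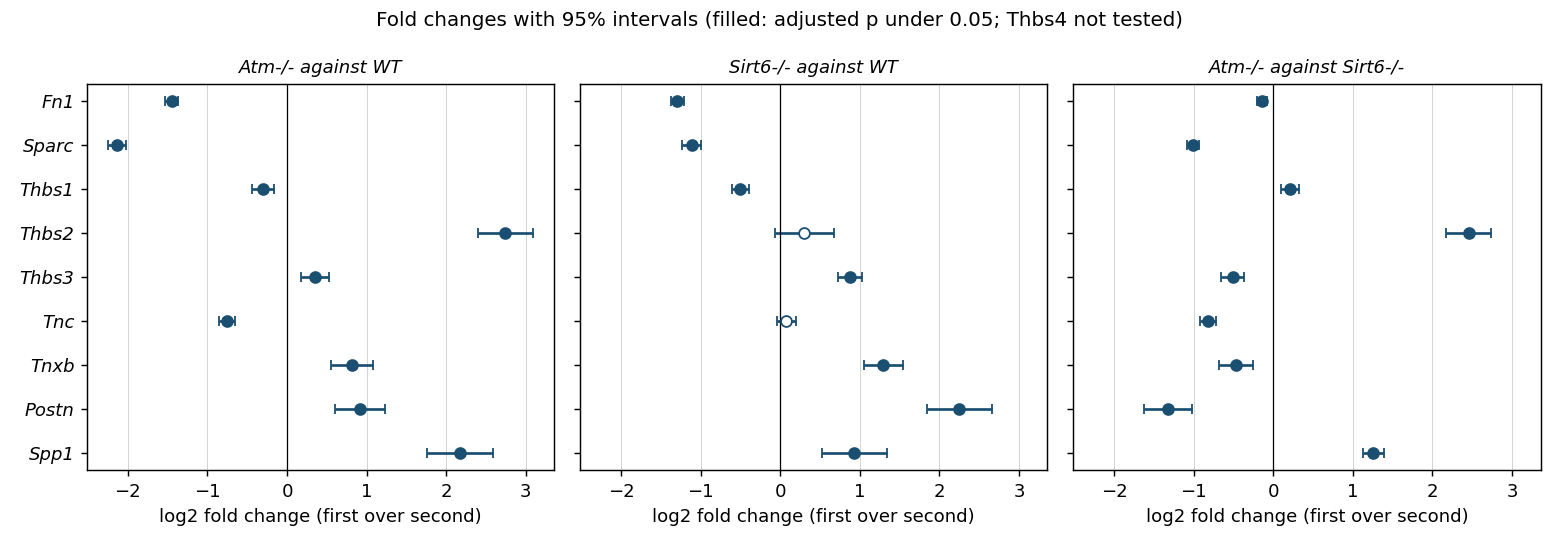
Log2 fold changes of the 9 tested genes in the 3 comparisons (x axis, first genotype over second), with 95% intervals; filled points passed an adjusted p of 0.05. *Thbs2* stood at 2.74 in *Atm-/-* and 0.30 in *Sirt6-/-*, while *Fn1* lay at -1.45 and -1.29.

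For the 5 genes with a change of at least 2-fold against WT that the RefSeq promoter table held (build GRCm38.p6), the 250 bases before the annotated start are shown, because a reader may want to set the response of each gene beside the sequence at its start. They are written 5' to 3' on the gene's own strand. Capitals mark matches on either strand to 4 motifs: TATAAA (the TATA box), TGANTCA (an AP-1 site), CCAAT (the CCAAT box) and GGGCGG (a GC box, as bound by SP1). The windows are chr5:104434861-104435110 on the plus strand for *Spp1*, chr17:14694263-14694512 on the minus strand for *Thbs2*, chr3:54360857-54361106 on the plus strand for *Postn*, chr17:34670285-34670534 on the plus strand for *Tnxb* and chr11:55420081-55420330 on the minus strand for *Sparc*.
Spp1: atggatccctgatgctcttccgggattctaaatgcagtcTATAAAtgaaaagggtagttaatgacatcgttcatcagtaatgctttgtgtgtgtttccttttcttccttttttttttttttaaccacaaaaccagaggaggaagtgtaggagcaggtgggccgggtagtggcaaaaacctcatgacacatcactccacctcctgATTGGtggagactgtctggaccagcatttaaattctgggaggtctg
Thbs2: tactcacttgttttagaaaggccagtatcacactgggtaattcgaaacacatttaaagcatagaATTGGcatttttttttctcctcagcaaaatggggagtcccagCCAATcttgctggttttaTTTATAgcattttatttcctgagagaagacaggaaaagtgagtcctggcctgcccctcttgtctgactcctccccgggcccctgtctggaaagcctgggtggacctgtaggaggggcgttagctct
Postn: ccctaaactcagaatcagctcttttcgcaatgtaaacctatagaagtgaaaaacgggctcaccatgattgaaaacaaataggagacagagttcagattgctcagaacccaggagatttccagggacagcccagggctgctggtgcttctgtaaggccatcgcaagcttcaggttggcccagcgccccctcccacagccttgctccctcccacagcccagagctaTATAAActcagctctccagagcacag
Tnxb: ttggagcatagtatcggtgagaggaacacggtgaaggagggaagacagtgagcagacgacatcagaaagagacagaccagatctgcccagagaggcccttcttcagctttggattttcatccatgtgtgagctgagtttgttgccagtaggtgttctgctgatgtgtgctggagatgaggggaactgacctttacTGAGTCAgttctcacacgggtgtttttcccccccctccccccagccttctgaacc
Sparc: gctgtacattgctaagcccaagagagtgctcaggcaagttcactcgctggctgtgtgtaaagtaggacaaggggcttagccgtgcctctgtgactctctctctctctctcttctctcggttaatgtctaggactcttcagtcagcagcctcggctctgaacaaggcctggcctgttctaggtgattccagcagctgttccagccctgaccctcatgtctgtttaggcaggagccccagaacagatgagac

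*Postn* held TATAAA 26 bases before its start. *Spp1* held TATAAA at 211 bases and a CCAAT box (ATTGG on the strand shown) at 46 bases. *Thbs2* held CCAAT boxes at 186 and 144 bases and TATAAA, on the other strand, at 126 bases. The AP-1 letters occurred in *Tnxb* alone among the 5, at 55 bases, and *Sparc* had no match. Thus no motif was shared by all 5 windows. Of the 32851 windows of the table, 12.4% held TATAAA, 6.75% TGANTCA, 33.9% CCAAT and 32.7% GGGCGG. Such matches describe the letters only, and a window without one says nothing about the factor. *Spp1* had the lowest GC content of the 5 (43.6%) and *Sparc* the highest (54.0%), and the median of all windows was 52.4%. The GENCODE M21 annotation places the 5' end of *Sparc* at 55423183, upstream of the RefSeq start used here.

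By length-scaled level (RPKM), *Sparc* and *Fn1* led the 10 genes in WT. Their means were 1251 and 1048 RPKM, ranks 25 and 42 among all genes counted. *Thbs1* followed with 198 RPKM, *Spp1* with 105, *Tnc* with 27.5 and *Thbs3* with 8.83. *Postn* (1.72), *Thbs2* (0.764), *Tnxb* (0.610) and *Thbs4* (no reads) closed the order. In *Atm-/-* the order was led by *Spp1* (531 RPKM), followed by *Fn1* (429), *Sparc* (319) and *Thbs1* (180). *Sirt6-/-* kept *Sparc* (615) and *Fn1* (455) at the head, with *Spp1* (213) above *Thbs1* (149). At the low end *Thbs2* had 5.74 RPKM in *Atm-/-*, above *Postn* with 3.62, whereas in *Sirt6-/-* *Postn* had 8.67 and *Thbs2* ranked below *Tnxb* (1.59). Within each genotype the 3 samples of neighbouring genes in the order did not overlap.

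**Figure D2:**
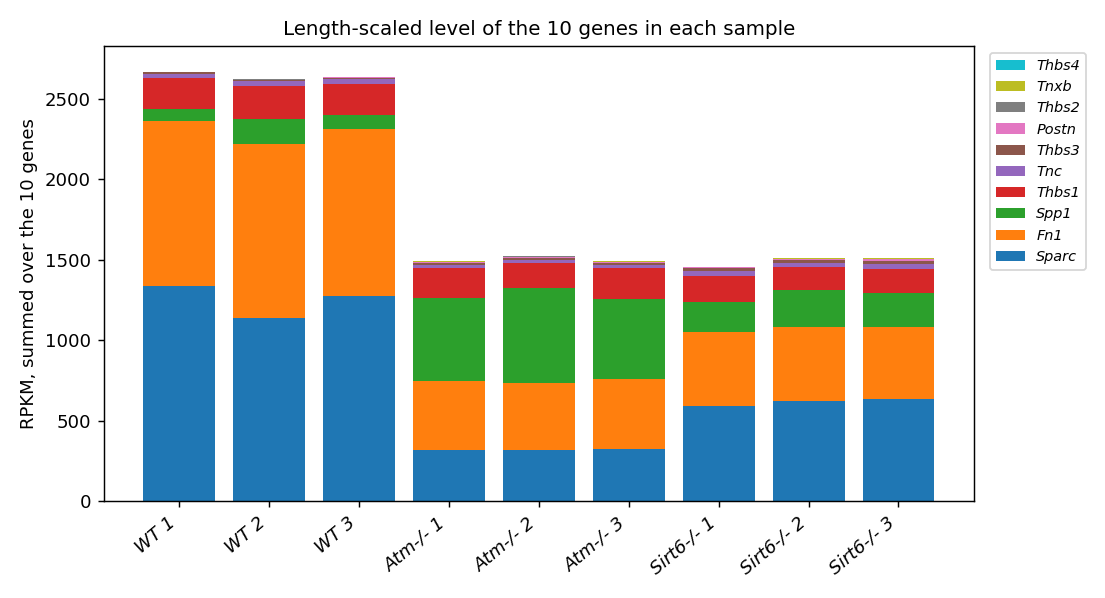
RPKM of the 10 genes stacked by gene (y axis) for each of the 9 samples (x axis). *Sparc* and *Fn1* made up most of the bar in WT (47.3% and 39.7% on average), and *Spp1* rose from 3.98% in WT to 14.3% in *Sirt6-/-* and 35.4% in *Atm-/-*.

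As a group, the 10 genes drew 1.33% ± 0.00725 (SD, n = 3) of all counted reads in WT, 0.635% ± 0.0112 in *Atm-/-* and 0.681% ± 0.00150 in *Sirt6-/-*. *Fn1* alone accounted for 0.848% of the reads in WT. No sample of either knockout overlapped with WT. The difference from WT was -0.698 percentage points in *Atm-/-* and -0.651 in *Sirt6-/-*, with p = 0.1 in each two-sided exact permutation test, the smallest that 3 samples against 3 allow. On the RPKM scale, where reads on long transcripts count for less, the shares were 0.611%, 0.330% and 0.329%. The lower share of *Atm-/-* than *Sirt6-/-* in reads was thus not seen in RPKM. Without *Fn1*, the other 9 genes drew 0.485%, 0.288% and 0.312% of the reads.

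Fibronectin, encoded by *Fn1* on the minus strand of chromosome 1 (71585520 to 71653200, GRCm38), had the most reads of the 10 genes. It stood at 8819, 9253 and 8865 CPM in WT. *Atm-/-* had 3312, 3226 and 3365 CPM, and *Sirt6-/-* had 3695, 3706 and 3599. The 3 genotypes did not overlap, and the spread within each was small (SD 238, 70.2 and 58.9 CPM). *Fn1* fell by 1.45 on the log2 scale in *Atm-/-* (SE 0.037, adjusted p = 1.5e-13) and by 1.29 in *Sirt6-/-* (SE 0.040, adjusted p = 5.47e-13). *Atm-/-* lay below *Sirt6-/-* by a small margin (log2 fold change -0.14, SE 0.030, adjusted p = 0.000162). The deposited tables list 7 RefSeq transcripts for *Fn1*, and gene counts do not separate the forms that include or skip the alternatively spliced domains.

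SPARC, or osteonectin, is a collagen- and calcium-binding glycoprotein (*Sparc*, minus strand of chromosome 11, 55394500 to 55423183). Its levels were 3738, 3197 and 3564 CPM in WT. They were 793, 797 and 818 in *Atm-/-*, and 1542, 1631 and 1687 in *Sirt6-/-*. The genotypes were ordered WT, *Sirt6-/-*, *Atm-/-* with no overlap. The log2 fold change was -2.13 (SE 0.053, adjusted p = 1.18e-13) in *Atm-/-* and -1.11 (SE 0.056, adjusted p = 1.59e-10) in *Sirt6-/-*. Between the knockouts it was -1.01 (SE 0.036, adjusted p = 5e-16). The ratio of *Fn1* to *Sparc* in RPKM was 0.770, 0.945 and 0.812 in WT, 0.782, 0.742 and 0.697 in *Sirt6-/-*, and 1.36, 1.32 and 1.34 in *Atm-/-*. Thus *Sparc* was above *Fn1* in every WT and *Sirt6-/-* sample and below it in every *Atm-/-* sample. Of 4 smooth muscle and myofibroblast markers, 3 reached 1 RPKM and *Myh11* did not. Their summed level was lower in both knockouts than in WT (1154 to 1239 RPKM in WT, 427 to 555 in *Atm-/-*, 551 to 692 in *Sirt6-/-*). The sums of the 2 knockouts overlapped. Against WT, all 3 tested fell in *Atm-/-* (median log2 fold change -1.14). In *Sirt6-/-*, 3 of 4 fell and 1 was not called (median -1.10). Of all genes, 33.6% and 37.4% were called as lower. Between the knockouts, 2 of these markers were higher and 2 lower in *Atm-/-* (median -0.27), beside 38.0% and 37.8% of all genes. The part of these markers in the *Fn1* and *Sparc* results was not tested.

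**Figure D3:**
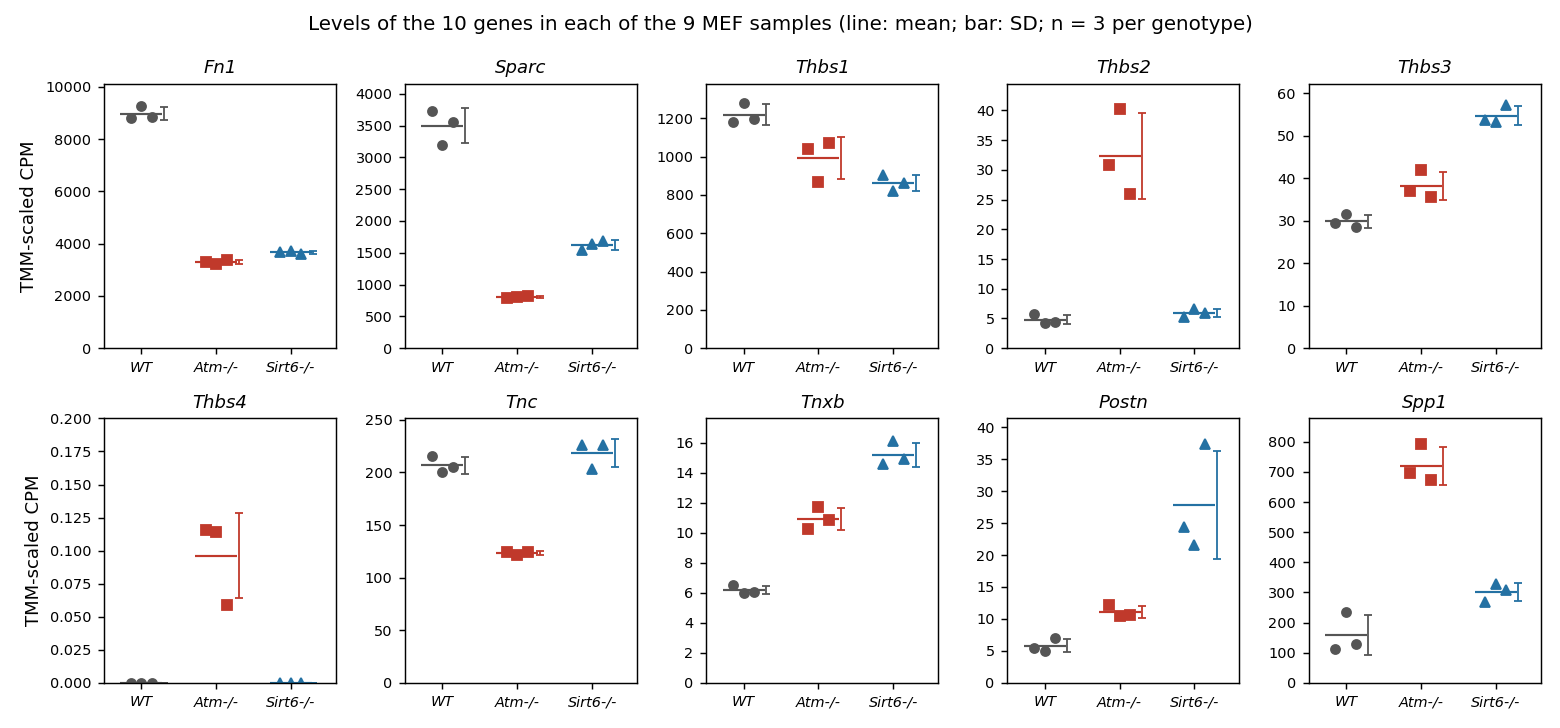
TMM-scaled CPM (y axis, linear, from 0, with its own scale in each panel) of each of the 10 genes in WT, *Atm-/-* and *Sirt6-/-* MEFs; symbols are samples, lines means and bars SD over 3 samples. WT replicate 2 stood at 235 CPM for *Spp1* against 112 and 129 in the other WT samples, and *Sirt6-/-* replicate 3 at 37.4 CPM for *Postn* against 24.4 and 21.6.

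The thrombospondins differed among themselves. Thrombospondins 1 and 2 are trimeric inhibitors of blood vessel growth that bind CD36 and CD47, and thrombospondin 1 also activates latent TGF-β. Thrombospondins 3 and 4 belong to the pentameric subgroup together with COMP. *Thbs1* had the highest level of the family in every genotype.

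*Thbs1* (chromosome 2, 118111876 to 118127133) stood at 1182, 1280 and 1197 CPM in WT and at 903, 821 and 863 in *Sirt6-/-*. In *Atm-/-* it was 1041, 869 and 1072 CPM, all below WT, while replicate 2 lay within the range of *Sirt6-/-*. In RPKM *Atm-/-* and WT overlapped, with *Atm-/-* replicate 3 (193.6) above WT replicate 1 (191.9). *Thbs1* fell in *Sirt6-/-* (log2 fold change -0.50, SE 0.048, adjusted p = 2.5e-07). In *Atm-/-* the log2 fold change was -0.30 (SE 0.065, adjusted p = 0.000826), but with libraries scaled by their totals alone it was -0.14 and the call ended (adjusted p = 0.0665), as it did on log2(RPKM + 1) in limma (-0.14, adjusted p = 0.114). The difference between the knockouts was 0.21 (SE 0.056, adjusted p = 0.00187).

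*Thbs2* (minus strand of chromosome 17, 14665500 to 14694235) was low in WT, at 5.74, 4.28 and 4.38 CPM. It reached 30.9, 40.2 and 26.0 CPM in *Atm-/-*. In *Sirt6-/-* it was 5.22, 6.61 and 5.94 CPM, which overlapped with WT. The rise in *Atm-/-* was the largest of any of the 10 genes against WT (log2 fold change 2.74, SE 0.16, adjusted p = 1.47e-09). For *Sirt6-/-* the value was 0.30 with a 95% interval of -0.07 to 0.68 (adjusted p = 0.127), which includes no change. The direct comparison gave 2.46 (SE 0.14, adjusted p = 9.18e-13), so *Thbs2* differed between the knockouts by more than the spread between samples. The ratio of *Thbs1* to *Thbs2* in RPKM was 210, 305 and 279 in WT, 177, 127 and 148 in *Sirt6-/-*, and 34.4, 22.1 and 42.1 in *Atm-/-*.

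*Thbs3* (chromosome 3, 89215180 to 89226837) was ordered WT, *Atm-/-*, *Sirt6-/-* with no overlap. Its levels were 29.4, 31.5 and 28.6 CPM in WT, 37.1, 42.0 and 35.6 in *Atm-/-*, and 53.8, 53.2 and 57.3 in *Sirt6-/-*. *Thbs3* rose by a log2 fold change of 0.35 (SE 0.079, adjusted p = 0.0012) in *Atm-/-* and 0.88 (SE 0.067, adjusted p = 1.85e-08) in *Sirt6-/-*, and *Atm-/-* lay below *Sirt6-/-* by -0.51 (SE 0.067, adjusted p = 7.58e-07). In GENCODE M21, 318 of its 4823 exon bases also lie in exons of *Mtx1* on the other strand, which had 1172 to 1417 reads. Whether the counting used strand is not given in the sources used here, so reads in the shared bases cannot be assigned to 1 gene.

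*Thbs4* (minus strand of chromosome 13, 92751590 to 92794818) had no reads in any WT or *Sirt6-/-* sample and 4, 4 and 2 reads in *Atm-/-*. These counts are around 3 reads, the upper limit that a count of 0 allows, and cover counting error only. *Thbs4* did not pass the filter, and no fold change is given.

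Tenascins are large multimeric glycoproteins that modulate adhesion. Tenascin C is induced in wounds and tumour stroma, and tenascin X organizes collagen fibrils in connective tissue. Their genes took different courses. *Tnc* (minus strand of chromosome 4, 63959785 to 64047015) stood at 28.6, 26.5 and 27.3 RPKM in WT and at 18.4, 17.9 and 18.4 in *Atm-/-*, with no overlap. *Sirt6-/-* had 32.1, 28.7 and 31.6 RPKM, all just above WT, whereas the TMM-scaled CPM of both genotypes overlapped. *Tnc* fell by 0.75 on the log2 scale in *Atm-/-* (SE 0.047, adjusted p = 2.55e-09). In *Sirt6-/-* the difference was 0.08 (95% interval -0.03 to 0.19, adjusted p = 0.184), and with libraries scaled by their totals alone it was 0.17 and passed (adjusted p = 0.00954). Between the knockouts *Tnc* differed by -0.82 (SE 0.046, adjusted p = 1.29e-12).

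*Tnxb*, the gene of tenascin X (chromosome 17, 34670535 to 34719815), was among the lowest of the 10. It had 6.52, 6.01 and 6.03 CPM in WT, 10.2, 11.7 and 10.9 in *Atm-/-*, and 14.5, 16.1 and 14.9 in *Sirt6-/-*. The order WT, *Atm-/-*, *Sirt6-/-* held without overlap. *Tnxb* rose in *Atm-/-* (log2 fold change 0.81, SE 0.12, adjusted p = 4.07e-05) and in *Sirt6-/-* (1.29, SE 0.12, adjusted p = 9.65e-08). *Atm-/-* was below *Sirt6-/-* by -0.47 (SE 0.10, adjusted p = 0.000384). A pseudogene of *Cyp21a2* shares only 3 of the 12209 exon bases of *Tnxb*. Exon bases shared with a gene on the other strand were 292 of 11685 in *Fn1*, 208 of 6073 in *Thbs1* and 176 of 7772 in *Tnc*.

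Periostin (*Postn*, chromosome 3, 54361109 to 54391037) binds collagen and integrins and is abundant in periosteum, tendon and healing tissue. WT samples had 5.52, 5.02 and 6.99 CPM and *Atm-/-* samples 12.2, 10.5 and 10.6. *Sirt6-/-* samples had 24.4, 21.6 and 37.4 CPM. Replicate 3 of *Sirt6-/-* was the highest, and the 3 genotypes did not overlap. *Postn* rose by a log2 fold change of 2.25 in *Sirt6-/-* (SE 0.19, adjusted p = 4.88e-08), with values of 1.98 to 2.41 when each sample was left out in turn. In *Atm-/-* it rose by 0.92 (SE 0.15, adjusted p = 6.1e-05). The knockouts differed by -1.32 (SE 0.15, adjusted p = 6.21e-08).

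Osteopontin (*Spp1*, chromosome 5, 104435118 to 104441050) is a secreted phosphoprotein of bone, macrophages and injured tissue that binds integrins and CD44. In WT it stood at 112, 235 and 129 CPM. *Atm-/-* had 695, 793 and 673 CPM, and *Sirt6-/-* had 269, 329 and 309. All 6 knockout samples lay above all WT samples, and WT replicate 2, which stood apart over all genes, was the highest of WT (coefficient of variation 42.2% over the 3). *Spp1* rose by a log2 fold change of 2.18 in *Atm-/-* (SE 0.19, adjusted p = 1.46e-07) and 0.93 in *Sirt6-/-* (SE 0.19, adjusted p = 0.000441). Without WT replicate 2 the values were 2.57 (adjusted p = 4.95e-20) and 1.32 (adjusted p = 1.93e-13). Leaving out WT replicate 1 instead gave 1.98 and 0.72, and WT replicate 3 gave 2.05 and 0.79, all of which passed. *Atm-/-* exceeded *Sirt6-/-* by 1.26 (SE 0.061, adjusted p = 8.44e-14). In GENCODE M21, 309 of the 1648 exon bases of *Spp1* also lie in exons of *Gm42793* on the same strand. *Gm42793* is not among the genes counted, so reads in the shared bases cannot be assigned to 1 gene. Of 6 cartilage and bone markers, 2 reached 1 RPKM in WT and 3 in each knockout. *Acan* reached it in *Atm-/-* alone and *Col2a1* in *Sirt6-/-* alone, while the bone markers *Sp7* and *Bglap* stayed under it in every genotype. The summed levels were at most 13.3 RPKM in WT, 26.0 to 29.3 in *Atm-/-* and 58.9 to 68.2 in *Sirt6-/-*. Of the 4 markers tested against WT, 3 rose and 1 was not called in *Atm-/-*. In *Sirt6-/-*, 3 rose and 1 fell. Of all genes, 34.7% and 39.2% were called as higher. The part of these markers in the *Spp1* and *Postn* results was not tested.

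The proteins of these genes act through cell-surface receptors, and a list of 20 genes was examined (integrin chains, *Sdc4*, *Cd36*, *Cd44*, *Cd47*, *Lrp1*, *Calr*, *Stab1*, *Ddr2* and *Egfr*). The list is called receptors for short, although not all of its genes, for example *Calr* and *Ddr2*, encode surface receptors of the 10 proteins. In *Atm-/-*, 15 were tested against WT, of which 4 rose and 9 fell (median log2 fold change -0.30), beside 34.7% and 33.6% of all genes. In *Sirt6-/-*, 19 were tested, of which 12 rose and 5 fell (median 0.50), beside 39.2% and 37.4% of all genes. All genes tested had a median of 0.02 in both comparisons. Between the knockouts, 4 of 19 were higher and 12 lower in *Atm-/-* (median -0.72), beside 38.0% and 37.8% of all genes, whose median was 0.00. Some of these genes had few reads in 1 genotype and passed the filter through the other, so that the filter itself favoured a difference. They were *Itga8* in both knockouts (7 to 12 reads in WT, 48 to 67 in *Atm-/-*, 33 to 45 in *Sirt6-/-*) and, in *Sirt6-/-*, *Itga4* (0 to 1 read in WT, 22 to 77 in *Sirt6-/-*), *Itga9* (0 to 6 and 61 to 72) and *Itgb6* (9 to 19 and 59 to 93). In the direct comparison *Itga4* (0 to 7 reads in *Atm-/-*), *Itga9* (7 to 12) and *Itgb6* (2 to 7) likewise passed through *Sirt6-/-*. With at least 10 reads required in every sample, 3 rose and 9 fell of 14 in *Atm-/-* (median -0.32), and 8 rose and 5 fell of 14 in *Sirt6-/-* (median 0.33). Between the knockouts 4 were then higher and 9 lower of 15 (median -0.25).

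*Cd44*, a receptor of hyaluronan and osteopontin, and *Lrp1*, the endocytic receptor that clears thrombospondins, had the largest rises among well counted receptors in *Atm-/-* (log2 fold changes 0.57 and 0.40, adjusted p = 3.87e-06 and 7.94e-06). The β3 integrin gene *Itgb3*, whose product pairs with αv to bind fibronectin and osteopontin, had the largest fall (-1.38, adjusted p = 1.22e-08), followed by the EGF receptor gene *Egfr* (-0.55, adjusted p = 1.47e-07). In *Sirt6-/-* the largest rises among well counted receptors were those of *Lrp1* (1.63, adjusted p = 1.23e-12) and the β5 integrin gene *Itgb5* (1.40, adjusted p = 3.63e-12). The α3 integrin gene *Itga3* (-1.19, adjusted p = 4.23e-11) and the αv gene *Itgav* (-0.66, adjusted p = 4.65e-09) fell most. *Itgb1* and *Itga5*, the chains of the main fibronectin receptor, were named after their values were seen. *Itgb1* fell in *Atm-/-* (-0.39, adjusted p = 3e-06) and in *Sirt6-/-* (-0.62, adjusted p = 1.1e-08). *Itga5* fell in *Atm-/-* (-0.47, adjusted p = 0.0002; -0.32 without WT replicate 2). In *Sirt6-/-* its value was -0.22 (adjusted p = 0.0332), and the call ended without WT replicate 2 (-0.08, adjusted p = 0.119), without *Sirt6-/-* replicate 1 (adjusted p = 0.112) or 2 (adjusted p = 0.0909), with library totals (adjusted p = 0.184), in the DESeq2 Wald test (adjusted p = 0.151) and on log2(RPKM + 1) in limma (adjusted p = 0.292). Of the well counted receptors in the direct comparison, *Itga3* (1.11) and *Cd44* (0.45) were the most strongly higher in *Atm-/-*, and *Itgb5* (-1.78) and the calreticulin gene *Calr* (-1.37) the most strongly lower.

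A list of 19 genes, called relatives for short, held genes of the same families and some other matrix genes, among them *Nov* and *Ecm1*. Of these 19, 7 were tested in *Atm-/-*, of which 4 rose and 3 fell (median log2 fold change 3.10). In *Sirt6-/-*, 9 were tested, of which 7 rose and 2 (*Comp* and *Smoc1*) did not pass (median 1.87). Over all genes 68.4% were called in *Atm-/-* and 76.6% in *Sirt6-/-*, so that the number called in *Sirt6-/-* was near the background. These counts include *Sparcl1* and *Spock2*, which had 0 to 6 reads in each WT sample and passed the filter through the knockouts. For these genes the filter itself favoured a difference. With at least 10 reads required in every sample, 3 rose and 3 fell of 6 in *Atm-/-* (median 1.24), and 5 rose of 6 in *Sirt6-/-* (median 1.69). Between the knockouts, 3 of 9 were higher and 6 lower in *Atm-/-* (median -2.15), where 75.8% of all genes were called, and with at least 10 reads in every sample 3 and 4 of 7 (median -2.14). Here *Spock2* (1 to 4 reads in *Atm-/-*, 28 to 53 in *Sirt6-/-*) and *Comp* (0 to 11 and 11 to 20) passed the filter through *Sirt6-/-*. *Nov*, a matricellular gene of the CCN family, had 34, 52 and 42 reads in WT, 2344, 3288 and 2466 in *Atm-/-*, and 1584, 1668 and 1686 in *Sirt6-/-* (log2 fold changes 5.84 and 5.21, adjusted p = 3.12e-13 and 2.24e-14). *Tgfbi*, the closest relative of periostin, had 156 to 196 reads in WT, 1411 to 1929 in *Atm-/-* (3.10, adjusted p = 1.32e-11) and 6625 to 7705 in *Sirt6-/-* (5.34, adjusted p = 4.6e-16). *Smoc2*, a SPARC-family gene, rose in *Atm-/-* (3.28, adjusted p = 1.65e-11) and in *Sirt6-/-* (1.36, adjusted p = 4.83e-08). *Fstl1*, another gene of the SPARC family, had 27588 to 29413 reads in WT, 9501 to 9571 in *Atm-/-* and 80111 to 82071 in *Sirt6-/-*. It fell in *Atm-/-* (-1.71, adjusted p = 1.16e-13), rose in *Sirt6-/-* (1.47, adjusted p = 2.01e-13) and was lower in *Atm-/-* than in *Sirt6-/-* (-3.16, adjusted p = 2.07e-24). *Ecm1*, a secreted glycoprotein of the matrix, likewise fell in *Atm-/-* (-0.67, adjusted p = 3.53e-05), rose in *Sirt6-/-* (1.87, adjusted p = 1.91e-10) and was lower in *Atm-/-* than in *Sirt6-/-* (-2.52, adjusted p = 8.51e-18).

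**Figure D4:**
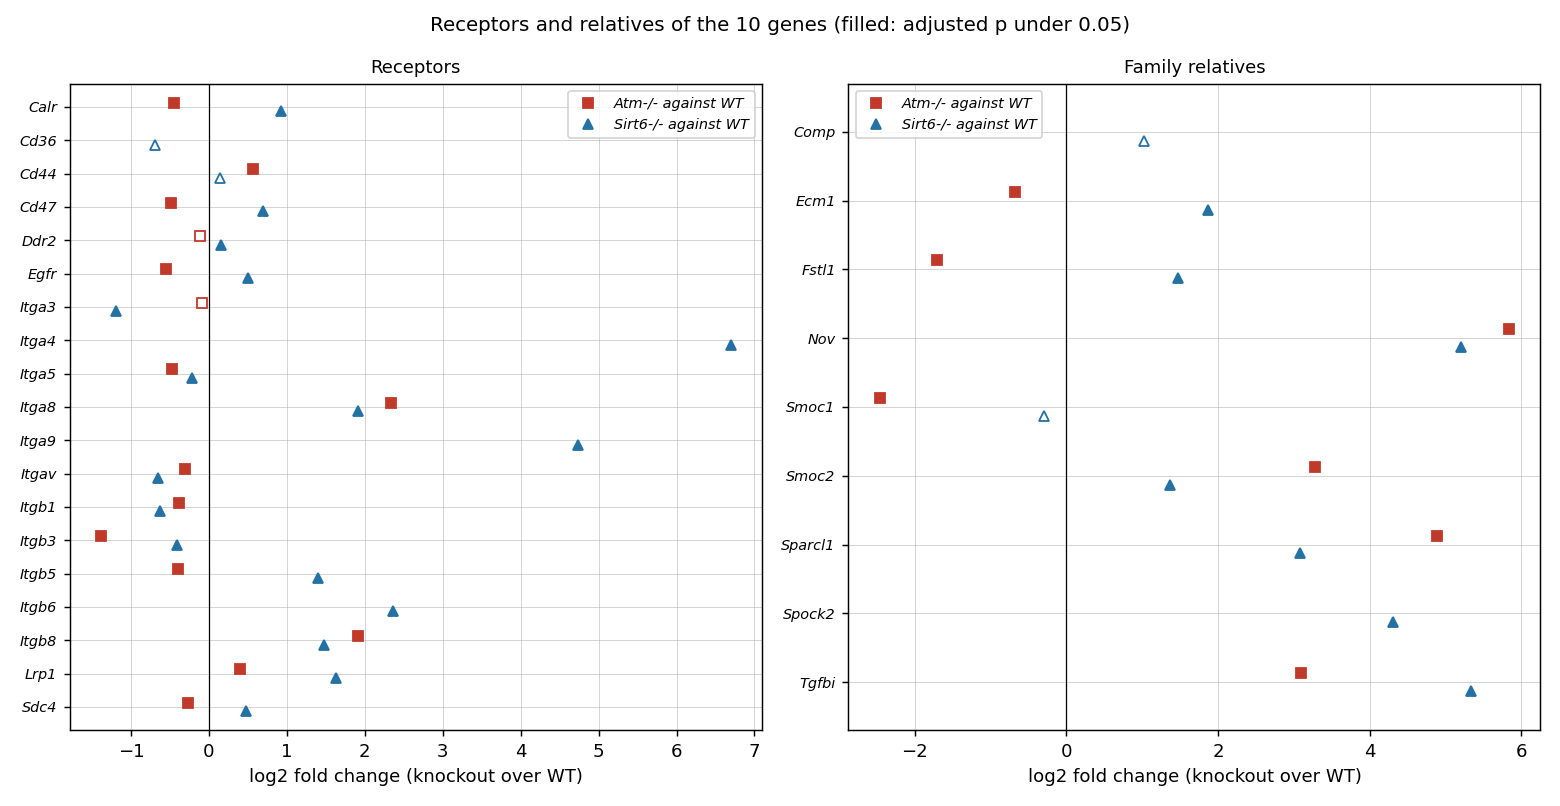
Log2 fold changes against WT (x axis) of the receptors (left) and relatives (right) tested in at least 1 knockout; squares are *Atm-/-*, triangles *Sirt6-/-*, and filled symbols passed an adjusted p of 0.05. *Itga4*, *Itga9*, *Sparcl1* and *Spock2* (at most 6 reads in any WT sample), *Itga8* and *Itgb6* (at most 19) passed the filter through a knockout, and *Lrp1* lay at 0.40 in *Atm-/-* and 1.63 in *Sirt6-/-*.

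The likeness of courses over the 9 samples was measured as the root mean square (RMS) difference of log2 CPM after centring each gene on its mean. Among the 10 genes, *Thbs3* and *Tnxb* were closest (RMS difference 0.221), then *Fn1* and *Sparc* (0.379) and *Thbs1* and *Tnc* (0.428). The measure is not scaled by the size of the changes, so genes that change little can be close without moving together. *Thbs1* and *Tnc* went opposite ways between the knockouts (log2 fold changes 0.21 and -0.82 in *Atm-/-* against *Sirt6-/-*). Among the 9384 genes whose mean log2 CPM was 3 or more, the nearest gene to *Fn1* was *Ccnd2*, which encodes cyclin D2 (0.0883). The nearest to *Sparc* was *Pltp*, which encodes the phospholipid transfer protein (0.0941). *Thbs1* was closest to the SRC-family kinase gene *Yes1* (0.0529), *Thbs3* to *Ctc1*, a gene of telomere maintenance (0.0501), and *Tnxb* to *Wdr34* (0.0579). For *Tnc* it was *2010111I01Rik* (0.0549). The 3 genes with the widest spread had less close neighbours, namely *Thbs2* with *H2-T10* (0.234), *Postn* with *Fam3c* (0.203) and *Spp1* with *Gpc1*, a cell-surface heparan sulfate proteoglycan (0.252). With 3 genotypes that differ broadly, many genes share such courses, and the distances are given as a description.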

How the data were processed

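RNA-Seq of 9 MEF samples was used (3 WT, 3 *Atm-/-*, 3 *Sirt6-/-*). Per the labels, mRNA was selected with oligo(dT) and sequenced from Illumina libraries. The files deposited by the authors give, sample by sample, whole-number counts of reads for 24341 genes with no normalization, and RPKM, made by dividing these counts by a listed transcript length and the read total. The build mm10 is named in the submitters' processing notes, and the aligner, the counting tool and its use of strand are not given in the sources used here.

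A fit per pair of genotypes (6 samples) was made in R 4.3.3 by edgeR 4.0.16 (filterByExpr, TMM, prior count 0.125, quasi-likelihood test, Benjamini-Hochberg adjustment over all genes tested, called under 0.05). CPM are scaled by TMM over the 9 samples. SE and 95% intervals are of the log2 fold change. The shares of reads were compared with exact permutation tests in scipy 1.17.1. DESeq2 1.42.0 and limma 3.58.1 (on log2(RPKM + 1)) were alternatives, beside other scalings, filters, samples in the fit and samples left out. The procedure was tested on simulated data in which few genes changed, in equal numbers up and down. That setting does not test the scaling where most genes are called, as they were here. Positions are from GENCODE M21 on GRCm38, and promoter windows from RefSeq (GRCm38.p6), where 8 of the 10 genes were matched.

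The 10 genes, the receptor and relative lists and the markers were chosen with earlier results of these data known. The genes named are the 10, the targeted genes and *Trp53*, from each partner list up to 2 largest rises and 2 largest falls per comparison (called, mean log2 CPM of at least 3, no overlap between samples), and for each tested gene the 1 with the closest course (pseudocount 0.1 CPM). Others are said to be chosen later or are named for low counts.

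Samples of a genotype differed by more than counting noise (chi-square per gene 5.11 to 15.6, highest for WT replicate 2) and were counted as separate. Intervals from counts cover counting error only.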

Additional observations from a re-analysis of the deposited data

How the results depend on the processing

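The 9 tested genes were refitted under 405 combinations of gene, comparison and alternative (DESeq2 size factors, library totals, no filter, at least 10 counts in every sample, all 9 samples in one fit, a replicate block, the DESeq2 Wald test, limma on log2(RPKM + 1), a prior count of 2 and each sample left out), and none changed direction. In 399 the side of the threshold was kept, in 2 (*Thbs1* in *Atm-/-*) the call was lost and in 4 (*Tnc* and *Thbs2* in *Sirt6-/-*) gained. All but 1 of these are given beside the genes above, the other being *Tnc* on log2(RPKM + 1) (0.16, adjusted p = 0.0252 in limma). Library totals moved the median log2 fold change of all genes from 0.02 to 0.18 in *Atm-/-* and from 0.02 to 0.11 in *Sirt6-/-* against WT. Of the genes called in *Atm-/-* against WT, 50.8% were higher under TMM and 64.9% under library totals (6156 higher, 3326 lower). On log2(RPKM + 1), which understates changes of low genes by construction, *Tnxb* had 0.45 and 0.69 against WT in *Atm-/-* and *Sirt6-/-*.

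With at least a 2-fold change also required, fewer genes passed by construction. In *Atm-/-* against WT these were 2983 genes (1675 higher, 1308 lower), 4 of the 10 genes (2 higher, 2 lower) and 3 receptors (2 higher, 1 lower). In *Sirt6-/-* against WT they were 3872 genes (2315 higher, 1557 lower), 4 of the 10 (2 higher) and 8 receptors (7 higher, 1 lower), and in *Atm-/-* against *Sirt6-/-* 3433 genes (1523 higher, 1910 lower), 4 of the 10 (2 lower) and 9 receptors (1 higher). The genes passing were 22.5%, 29.3% and 25.5% of all genes tested in the 3 comparisons. Of the 10 genes 9 were tested in each, and of the receptors 15, 19 and 19. The receptors include *Itga8* in both comparisons with WT and *Itga4*, *Itga9* and *Itgb6* in *Sirt6-/-*, which passed the filter through the knockout. In the direct comparison they include *Itga4*, *Itga9* and *Itgb6*, which passed it through *Sirt6-/-*. The share of the 10 genes in *Atm-/-* minus *Sirt6-/-* was -0.0463 percentage points in reads and 0.000663 in summed RPKM (exact permutation p = 0.9). The cause was not tested.

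Replicate numbers did not pair the samples: deviations from the genotype means of same-numbered samples correlated at -0.0201 to 0.0307. With a replicate block 8833, 10041 and 10157 genes were called in the 3 comparisons, against 9080, 10114 and 10205 without it, and 9, 7 and 9 of the 10 genes. With each sample left out, 9, 7 to 8 and 9 of the 9 tested genes were called. Over all genes, 8545 to 9240, 9651 to about 10220 and 9896 to about 10010 were then called. Depth limits *Thbs4* most: with no filter its adjusted p in edgeR was 0.0566 for *Atm-/-* against WT and 0.0443 against *Sirt6-/-*, from at most 4 reads a sample, and in DESeq2 0.109 and 0.0822.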
